A study of Mus musculus with 24 samples.

Results

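GABA-A receptors of the hippocampus were followed through 7 subunit genes, Gabra2, Gabra3, Gabra4, Gabra5, Gabrb1, Gabrb2 and Gabrd, taken by symbol from count tables of 55254 genes. The list from which they come names 10 genes, and the remaining ones were not analysed here. The tissue was the hippocampus of male mice (C57BL/6N background) at 6 months of age, whose nuclei were sorted by an antibody to NeuN, the Rbfox3 product that marks neuronal nuclei, into NeuN+ and NeuN- fractions. RNA of these nuclei was sequenced for WT, Ogg1-/-, Mutyh-/- and Ogg1xMutyh-/- mice, the last called DKO, with 3 libraries per group and 24 in all. No mouse was treated. Ogg1 and Mutyh encode DNA glycosylases, enzymes that start base excision repair. Ogg1 removes oxidised guanine and Mutyh removes adenine wrongly placed opposite it. The knockouts are not restricted to a cell type. Nuclei were pooled from several animals. The paper describes its data in general as at least 3 independent biological replicates, without saying how pools map to RNA libraries. What a replicate stands for here is thus unclear, so that the tests measure the spread between libraries, which may be technical.

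GABA-A receptors are chloride channels opened by GABA, the main inhibitory transmitter of the brain. Each receptor is a ring of subunits, most often alpha and beta subunits with a gamma or a delta subunit. The alpha subunit shapes affinity, kinetics and drug response, the beta subunit holds part of the GABA site and binds the trafficking machinery, and receptors with alpha5 or delta sit largely outside synapses, where they carry tonic inhibition. In the hippocampus alpha5 is abundant in pyramidal cells, alpha2 is known from the axon initial segment, and alpha4 with delta is typical of dentate granule cells. Astrocytes and oligodendrocyte precursors also carry GABA-A receptors.

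Total counts ranged from 56563586 to 96192142 per library, with a median of 70434612. Values are CPM, counts per 1e6 counts, scaled over all 24 libraries, or FPKM, the CPM per kilobase of merged exons, where levels of different genes are compared. Counts of replicate libraries varied by at least 5.66 times the sampling noise (chi-square per degree of freedom over genes), so no library was counted as a copy. Among the NeuN- libraries, DKO replicate 3 and Ogg1-/- replicate 3 lay farthest out on the first principal component, at 70.3 and 44.5, and marker genes of the choroid plexus summed to 5.90 to 181 CPM in DKO and 7.73 to 82.7 CPM in Ogg1-/-. Counts of the targeted genes did not show their loss, and those of Ogg1 could not check the genotype labels. Mutyh counts were higher, not lower, in libraries labelled Mutyh-/- and DKO (10.9 and 9.94 CPM in NeuN+ against 1.23 in WT). These libraries had at least 8.47 CPM of Mutyh in NeuN+, against at most 1.41 in WT and Ogg1-/-. In NeuN- they had at least 6.65 CPM, against at most 3.29, so Mutyh followed the labels without a loss. Ogg1 was not lower in NeuN+ libraries labelled Ogg1-/- and DKO (3.46 and 3.36 CPM against 3.30). Counts of whole genes do not show which exons were read, and the genotype names used here are those of the labels.

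On GRCm38, Gabra2 lies on chromosome 5 at 70957597-71095849 (minus strand), Gabra4 at 71569749-71658308 (minus strand) and Gabrb1 at 71658113-72149037 (plus strand) of the same chromosome. Gabra4 and Gabrb1 start head to head and share 46 bases of exon on opposite strands. Gabra5 lies on chromosome 7 at 57407672-57510059 (minus strand), and 148 bases of its exons, or 4.98%, are shared with the antisense gene Gm9962. Gabra3 lies on chromosome X at 72432681-72656848 (minus strand), Gabrb2 on chromosome 11 at 42419757-42629028 (plus strand) and Gabrd on chromosome 4 at 155384980-155398112 (minus strand), 38.57 Mb from Mutyh. The library kit keeps strand, but the strand setting of the counting was not given in the sources used here, so reads from these shared bases cannot be assigned to either gene.

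RefSeq (GRCm38.p6) gave the 250 bases before a start for 6 of the 7 genes, at 10 starts. Below are those of Gabra5, which sets the sharpest contrast between fractions, of Gabrb1, which sets the weakest, and of Gabra4, the neighbour of Gabrb1. They were searched on both strands for the TATA box TATAAA, the GC box GGGCGG, the cAMP response element TGACGTCA and the E-box CACGTG, which were present in 12.368%, 32.742%, 1.546% and 6.021% of 32851 promoters of the same length. Capitals mark GC boxes, here read on the opposite strand. For Gabra4 the bases that belong to a UTR were left out. Gabrb1 has more than 1 start in RefSeq, and the one shown lies inside the gene.
Gabra5, chr7:57510060-57510309, minus strand: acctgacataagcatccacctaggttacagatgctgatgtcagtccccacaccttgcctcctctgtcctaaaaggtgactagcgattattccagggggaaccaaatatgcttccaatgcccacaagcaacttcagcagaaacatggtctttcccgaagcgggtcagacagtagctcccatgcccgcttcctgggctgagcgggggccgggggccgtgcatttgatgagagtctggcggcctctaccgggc
Gabrb1, chr5:71699682-71699931, plus strand: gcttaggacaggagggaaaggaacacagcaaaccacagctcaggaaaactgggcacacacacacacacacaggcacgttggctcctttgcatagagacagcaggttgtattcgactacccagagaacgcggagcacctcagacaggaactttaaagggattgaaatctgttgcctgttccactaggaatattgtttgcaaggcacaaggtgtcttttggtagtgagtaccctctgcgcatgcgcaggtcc
Gabra4, chr5:71658364-71658558, minus strand: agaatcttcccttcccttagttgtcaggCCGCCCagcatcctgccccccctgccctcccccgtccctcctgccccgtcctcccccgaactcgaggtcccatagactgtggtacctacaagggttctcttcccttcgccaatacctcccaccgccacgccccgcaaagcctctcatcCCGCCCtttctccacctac
The Gabra4 sequence held 2 GC boxes, and none of the 4 motifs was in the Gabra5 or the Gabrb1 window.

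In NeuN+ nuclei each of the 7 subunit genes had at least 468 counts in every library, and a beta subunit gene led. Over the 3 WT libraries Gabrb1 was at 61.5 ± 3.56 FPKM (SD, n = 3), followed by Gabra5 at 52.1 ± 3.28, Gabrb2 at 45.1 ± 3.22 and Gabra2 at 38.5 ± 2.67. Gabra4 at 24.9 ± 1.39, Gabra3 at 12.5 ± 0.923 and Gabrd at 3.53 ± 0.372 FPKM closed the order. No neighbours in this order overlapped between the WT libraries. The order Gabra5 above Gabrb2 was seen in 11 of the 12 NeuN+ libraries, and each of the other 5 steps in all 12.

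In NeuN- nuclei the order was another and Gabrb1 stood alone at the top. It was at 38.2 ± 3.33 FPKM in WT (SD, n = 3), above Gabra2 at 7.20 ± 0.493. Gabrb2 at 4.69 ± 0.101, Gabra3 at 4.23 ± 0.193 and Gabra4 at 4.20 ± 0.489 FPKM were close together. Gabra3 and Gabra4 overlapped between WT libraries, Gabrb2 was above Gabra3 in 8 of 12 libraries and Gabra3 above Gabra4 in 6 of 12. Gabra5 came next at 3.48 ± 0.369 FPKM, overlapping Gabra4 in WT yet below it in each of the 12 libraries, and Gabrd was lowest at 0.294 ± 0.0586 FPKM, on 28 to 87 counts per NeuN- library.

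**Figure D1:**
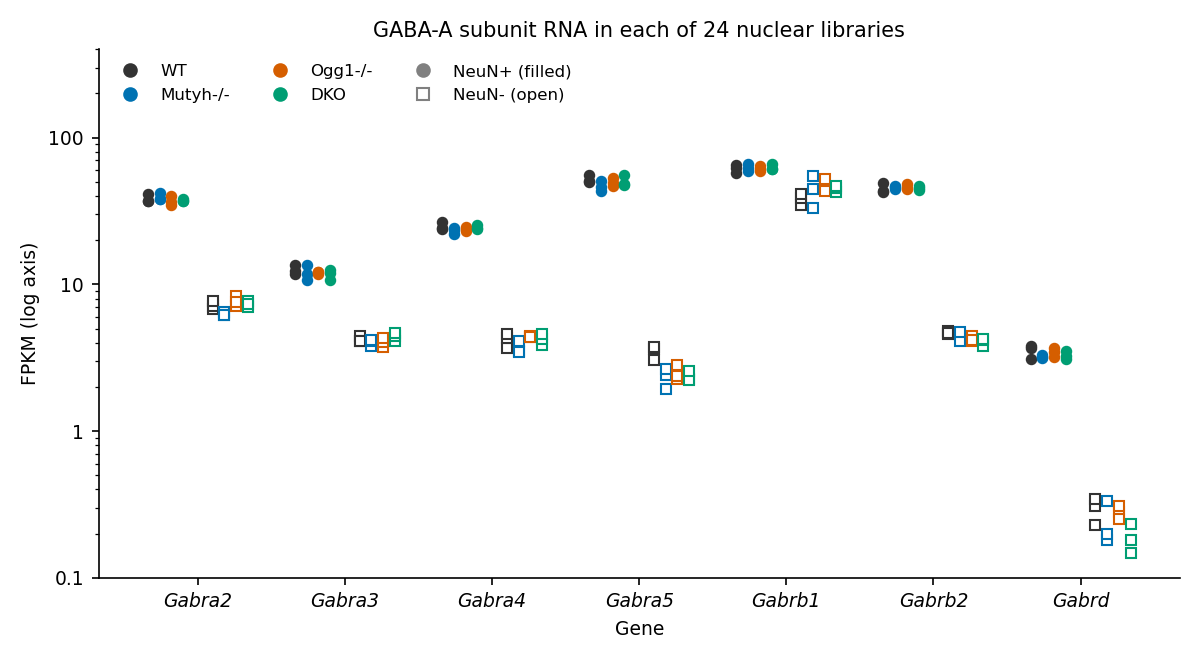
FPKM on a log axis for the 7 subunit genes, with a point for each of the 24 libraries (filled circles NeuN+, open squares NeuN-, colour by genotype). The NeuN+ and NeuN- points of each gene are apart, most widely for Gabra5 and least for Gabrb1.

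Compared within WT, each of the 7 genes was higher in NeuN+ than in NeuN- in edgeR's quasi-likelihood fit of all libraries, but by very different amounts. Of the alpha subunits, Gabra5 had 166, 148 and 151 CPM in the WT NeuN+ libraries and 9.10, 10.7 and 11.2 CPM in the WT NeuN- libraries, a log2 fold change of 3.91 ± 0.11 (SE, adjusted p = 1.03e-18). Gabra4 (2.57 ± 0.08) and Gabra2 (2.42 ± 0.07) differed less, and Gabra3, better known from the thalamic reticular nucleus and monoaminergic neurons than from hippocampal principal cells, differed by 1.57 ± 0.08. The delta subunit gene Gabrd differed by 3.59 ± 0.16.

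The 2 beta subunit genes were far apart. Gabrb2 had 310, 273 and 277 CPM in NeuN+ and 29.3, 30.5 and 29.7 CPM in NeuN-, a log2 fold change of 3.27 ± 0.06 (SE, adjusted p = 6.91e-21). Gabrb1 had 895, 798 and 859 CPM in NeuN+ and 480, 535 and 571 CPM in NeuN-, which is 0.69 ± 0.11 (SE, adjusted p = 9.52e-06) and under the limit of 1 on the log2 scale used for cell type calls. The NeuN- level of Gabrb1 was thus 62.2% of its NeuN+ level in WT, against 33.7% for Gabra3, 18.7% for Gabra2, 16.9% for Gabra4, 10.4% for Gabrb2, 8.34% for Gabrd and 6.67% for Gabra5.

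Neuronal markers set a scale for these shares. Rbfox3 itself stood in WT NeuN- nuclei at 6.17% of its NeuN+ level, Syt1, a calcium sensor of transmitter release, at 6.67% and the glutamate transporter gene Slc17a7 at 10.9%, but Map2 at 52.2% and Tubb3 at 53.9%, so that neuronal transcripts differed widely in this share. Neurons that escaped the sort and expression in other cells cannot be told apart in these bulk libraries, nor can fewer cells of a type and less RNA per cell. Per the labels, NeuN+ and NeuN- libraries were also run on different sequencing lanes, so lane and fraction cannot be told apart.

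The contrast between fractions held in each genotype. At an adjusted p under 0.05 and a log2 fold change above 1, 6 of the 7 genes were higher in NeuN+ in WT, Mutyh-/-, Ogg1-/- and DKO, all but Gabrb1, where 21.3%, 21.8%, 21.7% and 20.8% of the 33523 genes tested passed in this direction. Gabrb1 was 0.50 higher in Mutyh-/-, 0.37 in Ogg1-/- and 0.48 in DKO on the log2 scale, the largest of the 28 adjusted p-values being 0.005. Gabra5 had the largest difference in all 4 genotypes, from 3.91 in WT to 4.43 in DKO.

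These differences left receptor transcripts of another makeup in each fraction. The FPKM summed over the 7 genes was 224 to 254 in the 12 NeuN+ libraries and 54.6 to 76.3 in the 12 NeuN- libraries. Gabrb1 took 25.4% to 27.1% of that sum in NeuN+ and 60.4% to 72% in NeuN-. Gabra5 took 19.2% to 22.7% in NeuN+ and 2.99% to 5.72% in NeuN-, and Gabrb2 went from 18.7% to 20.7% in NeuN+ to 5.43% to 8.64% in NeuN-. Gabra3 had 4.66% to 5.54% in NeuN+ and 5.31% to 7.75% in NeuN-, overlapping ranges. These are shares of 7 genes only, since other subunit genes of the receptor are not in the sum.

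**Figure D2:**
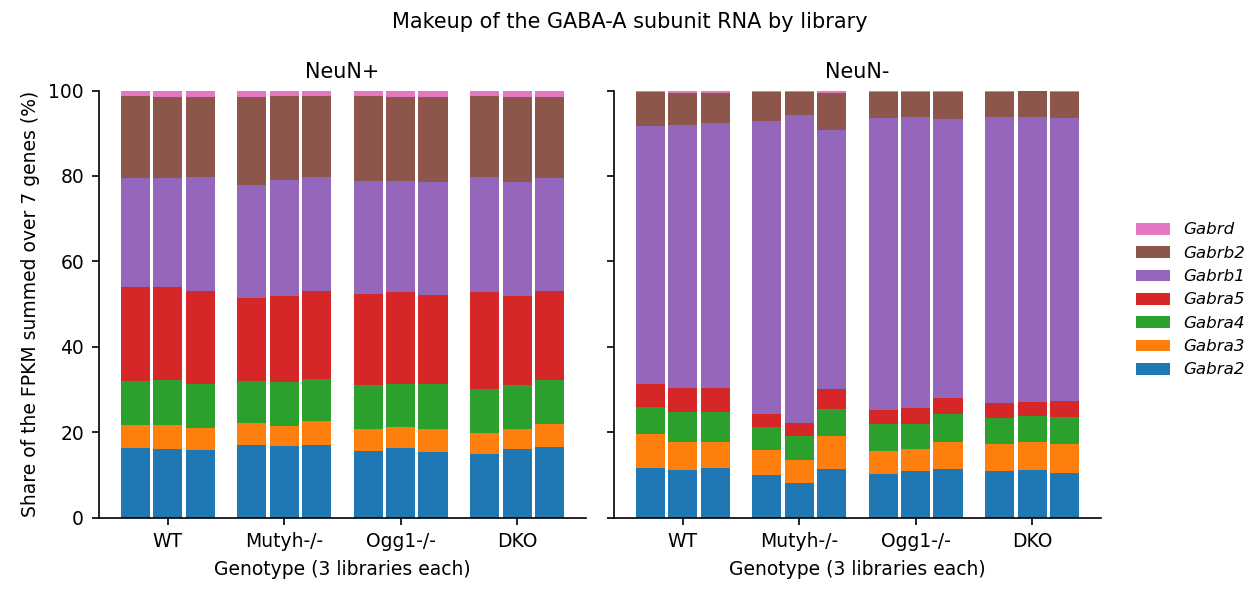
Share of each gene in the FPKM summed over the 7 subunit genes, in percent, with a bar per library grouped by genotype (left NeuN+, right NeuN-). Gabrb1 fills 60.4% to 72% of the NeuN- bars and at most 27.1% of the NeuN+ bars.

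The head-to-head neighbours Gabra4 and Gabrb1 were not kept in a fixed ratio. The log2 ratio of Gabrb1 to Gabra4 CPM was 2.45 to 2.62 in the 12 NeuN+ libraries and 4.35 to 4.91 in the 12 NeuN- libraries, with no overlap. This restates the fraction contrasts of both genes, and the ratio was chosen after its values were seen.

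The other GABA-A subunit genes listed here, Gabra6, Gabrg1, Gabrg3, Gabre and Gabrq, divided between the fractions. They are not all of the other subunit genes of the receptor. Gabrg3, a gamma subunit gene, was at 46.7 ± 3.05 FPKM (SD, n = 3) in WT NeuN+ and 9.73 in WT NeuN-, a log2 fold change of 2.26 in the range of the alpha subunits. Gabrg1, known from glia as well as from some neurons, was higher in NeuN-, at 23.2 CPM against 5.85 in NeuN+ (log2 fold change -1.99). Gabra6, the alpha subunit of cerebellar granule cells, and Gabre and Gabrq were under 1 CPM in both fractions of WT.

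Genes that make, release and clear GABA were divided between the fractions as well. In WT, Gad2 (3.27) and Gad1 (1.85), which synthesise GABA, and Slc32a1 (2.75), which loads it into vesicles, were higher in NeuN+ on the log2 scale. The uptake transporter genes Slc6a11 (-2.54) and Slc6a13 (-4.28) were higher in NeuN-. Of chloride transporters that set what GABA does to a cell, the potassium-chloride exporter gene Slc12a5 differed by 3.47 and the importer gene Slc12a2 by -3.23. Gphn, which encodes the scaffold gephyrin, was near equal, at -0.18.

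In the comparison of each knockout with WT in NeuN+ nuclei, no subunit gene was called. A call, or DEG (differentially expressed gene), needed a log2 fold change beyond 0.5 in either direction with an adjusted p under 0.05 (quasi-likelihood test, Benjamini-Hochberg), which 0.428% of the 30132 genes tested met in Mutyh-/-, 0.574% in Ogg1-/- and 0.302% in DKO. The 21 log2 fold changes, 7 genes in 3 genotypes, lay between -0.16 and 0.04, and their 95% intervals between -0.31 and 0.16. An unadjusted p under 0.05 was reached by 1 of the 21, Gabra5 in Mutyh-/- (-0.16, adjusted p = 0.255), where 18.7%, 12.3% and 13.5% of all genes reached it in Mutyh-/-, Ogg1-/- and DKO. In none of the 21 did the 3 knockout libraries lie wholly above or below the 3 WT libraries, which 21.6%, 20.1% and 17.5% of genes did. DESeq2's Wald test also called 0 of the 21.

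The values of the dominant neuronal subunits show how small the spread was. Gabra5 had 128, 137 and 151 CPM in Mutyh-/-, 145, 158 and 139 CPM in Ogg1-/-, and 166, 142 and 144 CPM in DKO, against 166, 148 and 151 CPM in WT. Gabrb2 had 294, 286 and 295 CPM in Mutyh-/-, 288, 307 and 282 CPM in Ogg1-/-, and 296, 290 and 279 CPM in DKO, inside or close to the WT libraries. Over all 12 NeuN+ libraries the coefficient of variation was 3.96% for Gabrb2, 4.14% for Gabrb1, 4.5% for Gabra4 and 5.79% for Gabra2, and 7.24% to 7.71% for Gabrd, Gabra3 and Gabra5. Gabrd, the extrasynaptic delta subunit, ranged from 8.92 to 10.9 CPM over these libraries.

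In NeuN- nuclei no subunit gene was called in the main test either, but Gabra5 came close in each knockout. The WT libraries had 9.10, 10.7 and 11.2 CPM of Gabra5 (775 to 981 counts), against 5.77, 7.17 and 7.82 CPM in Mutyh-/-, 6.76, 8.34 and 7.05 CPM in Ogg1-/-, and 6.75, 6.61 and 7.66 CPM in DKO. Each of the 9 knockout libraries was thus below each WT library. The log2 fold change was -0.59 ± 0.12 (SE) in Mutyh-/-, -0.49 ± 0.12 in Ogg1-/- and -0.57 ± 0.12 in DKO. The adjusted p was 0.091 for Mutyh-/-, 0.145 for Ogg1-/- and 0.112 for DKO. The 3 comparisons share the WT libraries and are not independent of each other.

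Whether Gabra5 was called in NeuN- depended on the test. With DESeq2's Wald test the adjusted p was 0.00166 for Mutyh-/-, 0.0153 for Ogg1-/- and 0.00368 for DKO, which called Gabra5 in Mutyh-/- and DKO, the Ogg1-/- value of -0.49 being short of the fold limit. A fit of all 24 libraries called it in the same genotypes (adjusted p = 0.00951 in Mutyh-/-, 0.0320 in Ogg1-/- and 0.0152 in DKO). Without Mutyh-/- NeuN- replicate 3 the Mutyh-/- value was -0.68 (adjusted p = 0.026), while the other fits without 1 library left it uncalled in each genotype. Without DKO replicate 3, which stood apart, the DKO value was -0.63 (adjusted p = 0.105), and without Ogg1-/- replicate 3 the Ogg1-/- value was -0.47 (adjusted p = 0.253). Across the 13 alternatives for each genotype the value stayed between -0.68 and -0.42.

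Neuronal markers in the same NeuN- libraries were lower too. Of 8 neuronal markers, 2 in Mutyh-/-, 6 in Ogg1-/- and 7 in DKO were lower at an unadjusted p under 0.05, none at an adjusted p under 0.05, with median log2 fold changes of -0.11, -0.29 and -0.30. Of all genes 13.7%, 11.8% and 12.4% reached that unadjusted limit in Mutyh-/-, Ogg1-/- and DKO, in either direction. The 8 values ran from -0.32 to -0.02 in Mutyh-/-, from -0.52 to 0.02 in Ogg1-/- and from -0.58 to -0.03 in DKO, so that in Ogg1-/- and DKO the lowest marker, Tubb3, was as low as Gabra5. None of the 8 was at 0, and their summed CPM was 754 to 845 in WT, while Mutyh-/- had 748 to 767, Ogg1-/- had 698 to 775 and DKO had 674 to 751. Per 1000 CPM of these markers Gabra5 stood between 12.1 and 13.3 in the WT libraries, between 7.72 and 10.3 in Mutyh-/-, between 9.69 and 10.8 in Ogg1-/- and between 9.63 and 10.2 in DKO, a scale that includes Map2 and Tubb3, both well detected in NeuN-. The NeuN- level of Gabra5 as a share of its NeuN+ level was 6.67% in WT, 4.99% in Mutyh-/-, 5.01% in Ogg1-/- and 4.65% in DKO. The same share of Rbfox3 was 6.17%, 4.87%, 4.54% and 3.95% in that order, and that of Syt1 was 6.67%, 5.61%, 5.24% and 5.15%. The shares of Snap25, Slc17a7 and Camk2a were also lower in each knockout than in WT. That of Nrgn was higher in each, at 16.2%, 17.0%, 17.5% and 17.0% in the same order. Tubb3 was higher in Mutyh-/- (59.9% against 53.9% in WT) and Map2 in Ogg1-/- (54.0% against 52.2%), each lower in the other knockouts. Of 10 interneuron markers, 4 were lower in NeuN- of each knockout at an unadjusted p under 0.05, beside the same shares of all genes. None was lower at an adjusted one, and the medians were -0.26, -0.30 and -0.37 in Mutyh-/-, Ogg1-/- and DKO. The antisense gene Gm9962 also ran lower in NeuN-, at 2.08 CPM in WT, 1.39 in Mutyh-/-, 1.59 in Ogg1-/- and 1.44 in DKO on 87 to 186 counts. The part of neuronal content and of reads from the shared exon bases in the Gabra5 result was not tested.

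Beside Gabra5, 5 of the remaining 18 comparisons in NeuN- reached an unadjusted p under 0.05, none an adjusted one. The 8 of 21 in all compare with 13.7%, 11.8% and 12.4% of the 31863 genes tested in Mutyh-/-, Ogg1-/- and DKO, where 0.273%, 0.229% and 0.116% were DEGs. Knockout and WT libraries did not overlap in 8 of the 21, against 19.2%, 19.4% and 16.8% of genes.

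Gabrb2, the beta subunit most common in synaptic receptors, had 29.3, 30.5 and 29.7 CPM in WT NeuN- libraries. It had 25.9, 28.3 and 26.5 CPM in Ogg1-/- (log2 fold change -0.16 ± 0.06, adjusted p = 0.363) and 24.1, 26.5 and 27.0 CPM in DKO (-0.21 ± 0.06, adjusted p = 0.252). All 6 of these libraries were below WT, and the Mutyh-/- libraries, with a median of 28.6 CPM, overlapped it. Gabra2 was at 49.6, 47.5 and 47.6 CPM in Mutyh-/-, below the 51.7, 54.3 and 59.1 CPM of WT (-0.20 ± 0.07, adjusted p = 0.240). Gabrd gave -0.65 ± 0.26 in DKO (adjusted p = 0.343) on the lowest counts of the family, and its libraries at 0.519, 0.427 and 0.668 CPM overlapped WT at 0.662, 0.884 and 0.993.

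Gabrb1 had the largest positive differences from WT in NeuN-. It had 480, 535 and 571 CPM in WT, 650, 718 and 602 CPM in Ogg1-/- (log2 fold change 0.30 ± 0.14, adjusted p = 0.419) and 592, 632 and 645 CPM in DKO (0.23 ± 0.14, adjusted p = 0.524). The Ogg1-/- and DKO libraries lay above all WT libraries. Mutyh-/- libraries had 616, 753 and 458 CPM (0.20 ± 0.14, adjusted p = 0.570), with only replicate 3 inside the WT range or below it. Fits without 1 library gave Mutyh-/- values from 0.01 to 0.36. In the Ogg1-/- and DKO libraries astrocyte markers ran higher, 4 of 6 in each at an unadjusted p under 0.05. Their medians were 0.25 and 0.25 on the log2 scale, and 1 marker was a DEG (Aldh1l1 in Ogg1-/-, 0.52, adjusted p = 0.0483). No astrocyte marker was at 0, their sum was 2789 to 3314 CPM in WT, 3247 to 4112 in Ogg1-/- and 3468 to 3628 in DKO. Oligodendrocyte markers moved the other way, 3 of 5 being lower in Ogg1-/- and 3 of 5 in DKO at an unadjusted p under 0.05 and none at an adjusted one, with medians of -0.24 and -0.25. Their sum was 5445 to 6287 CPM in WT, 4620 to 5019 in Ogg1-/- and 3902 to 5157 in DKO. Beside these counts of both lists, 11.8% of all genes in Ogg1-/- and 12.4% in DKO reached that unadjusted limit, in either direction. The part of either list in the Gabrb1 values was not tested.

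**Figure D3:**
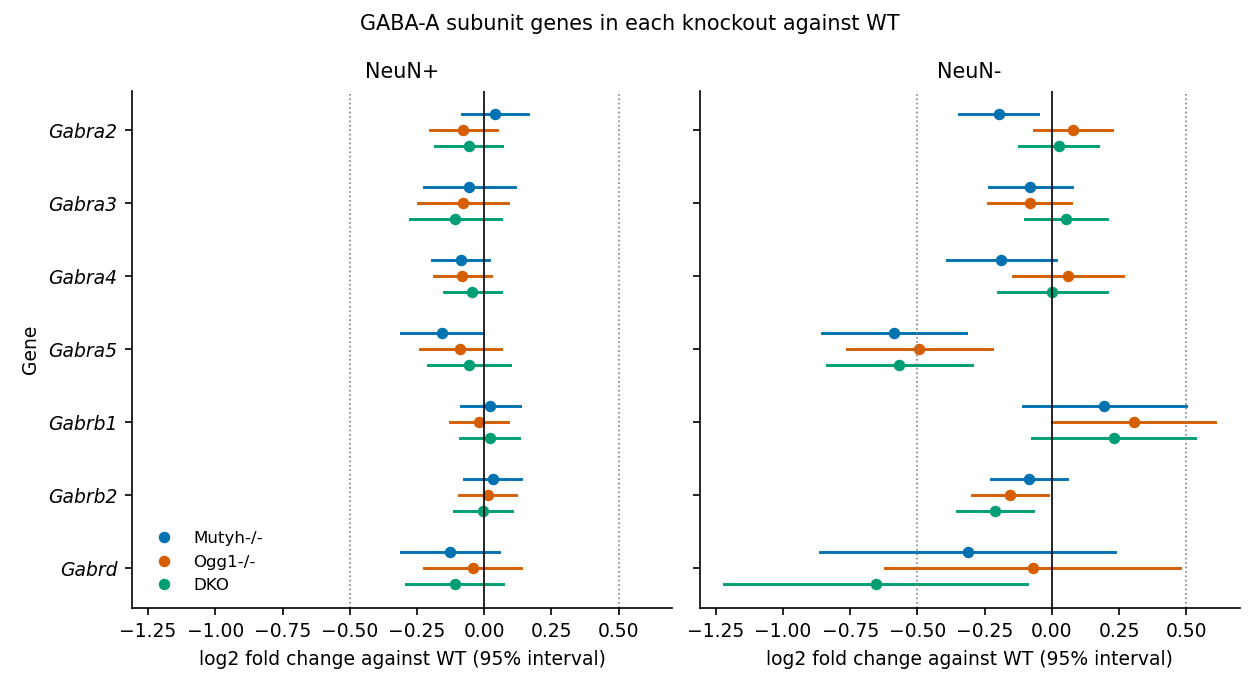
log2 fold change against WT (point) with its 95% interval (line) for the 7 genes in Mutyh-/-, Ogg1-/- and DKO, NeuN+ on the left and NeuN- on the right, with dotted lines at the fold limit of 0.5. All NeuN+ intervals lie within -0.31 to 0.16, and the 3 Gabra5 intervals in NeuN- lie below 0.

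**Figure D4:**
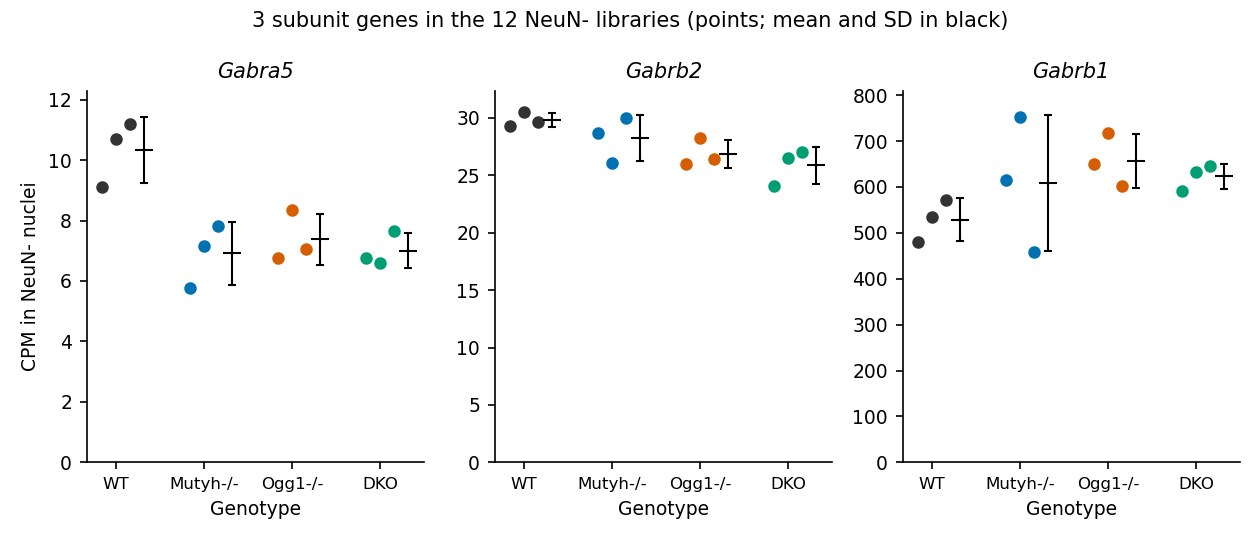
CPM of Gabra5, Gabrb2 and Gabrb1 in the 12 NeuN- libraries by genotype, a point per library, with the mean and SD of 3 libraries in black and axes from 0. The 9 knockout points of Gabra5 lie below the 3 WT points at 9.10 to 11.2 CPM. In a single knockout, 16.8% to 19.4% of all genes had no overlap with WT, in either direction.

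The effect of each knockout was also compared between fractions. None of 21 differences passed an adjusted p under 0.05, which 0.0209%, 0.0537% and 0.0567% of the 33523 genes passed for Mutyh-/-, Ogg1-/- and DKO. An unadjusted p under 0.05 was reached by 7 of 21, where 8.58%, 7.09% and 9.4% of genes did. These were Gabra5 in each knockout, Gabrb2 in Ogg1-/- and DKO, Gabra2 in Mutyh-/- and Gabrd in DKO. For Gabra5 the effect in NeuN+ minus that in NeuN- was 0.42 ± 0.15 (SE, adjusted p = 0.410) for Mutyh-/-, 0.41 ± 0.15 (0.556) for Ogg1-/- and 0.52 ± 0.15 (0.242) for DKO. DESeq2 gave the DKO difference as 0.54 with an adjusted p of 0.0394. In the main test the Gabra5 effect thus did not differ between fractions past the adjusted limit.

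The knockouts were hardly told apart by these genes. In NeuN+, 0 of 21 comparisons between knockouts were DEGs or reached an unadjusted p under 0.05, where the shares of all genes were 0.216% and 4.26% for DKO against Ogg1-/-, 0.139% and 6.86% for DKO against Mutyh-/-, and 0.485% and 12.7% for Ogg1-/- against Mutyh-/-. In NeuN-, 0 of 21 were DEGs and 4 reached an unadjusted p under 0.05, with shares of 0.132% and 4.34%, 0.122% and 11%, and 0.521% and 11.5% in the same order. DESeq2 also called 0 of the 42, though Gabra2 in Ogg1-/- against Mutyh-/- had an adjusted p of 0.0166 there, short of the fold limit. In 3 of the 4 Mutyh-/- was the lower one. Gabra2 was 0.28 ± 0.07 higher in Ogg1-/- than in Mutyh-/- (adjusted p = 0.0988) and 0.22 ± 0.07 higher in DKO (adjusted p = 0.295), and Gabra4 was 0.25 ± 0.09 higher in Ogg1-/- (adjusted p = 0.320). The fourth was Gabrd, at -0.58 ± 0.26 in DKO against Ogg1-/- (adjusted p = 0.997).

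In DKO the effect was also set against the sum of both knockout effects. No departure from additivity passed an adjusted p under 0.05, in NeuN+ (0.159% of all genes) or NeuN- (0.122%), and DESeq2 called none of the 14. At an unadjusted p under 0.05, none of 7 departed in NeuN+ (7.95% of genes) and 1 of 7 in NeuN- (8% of genes). That gene was Gabra5, whose DKO value of -0.57 was 0.51 ± 0.18 above the sum of the Mutyh-/- and Ogg1-/- values (adjusted p = 0.552).

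Of 34 other genes of GABA signalling and chloride transport, of which 32 were tested in NeuN+ (not Gabra6 and Gabre) and 34 in NeuN-, none was a DEG in any knockout of either fraction, and 2 passed an adjusted p under 0.05 below the fold limit. In Ogg1-/- NeuN- nuclei Slc6a11, a GABA transporter of astrocytes, rose by 0.37 (adjusted p = 0.0267), and Wnk1, a kinase that acts on chloride transporters, fell by 0.41 (adjusted p = 0.0186). Among 7 genes of GABA synthesis, release and uptake, 5 were lower in Mutyh-/- NeuN+ nuclei at an unadjusted p under 0.05 and none passed the adjusted limit, with a median of -0.31 against -0.01 over all genes. In Ogg1-/- NeuN+ 2 of the 7 were lower at that limit (median -0.15) and in DKO NeuN+ 3 of the 7 (median -0.26), none past the adjusted one, against shares of all genes of 18.7%, 12.3% and 13.5% in Mutyh-/-, Ogg1-/- and DKO, in either direction. The 5 in Mutyh-/- were Gad1 (-0.31), Gad2 (-0.36), Slc32a1 (-0.43), Slc6a11 (-0.49) and Abat (-0.19), the last a GABA-degrading enzyme. The 7 receptor subunits in the same libraries had a median of -0.06.

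Gad1, Gad2 and Slc32a1 are also interneuron markers. Of 10 such markers, 8 were lower in Mutyh-/- NeuN+ nuclei at an unadjusted p under 0.05, with a median of -0.40, as were 3 in Ogg1-/- (median -0.20) and 6 in DKO (median -0.27). Of all genes in NeuN+, 18.7%, 12.3% and 13.5% reached that limit in Mutyh-/-, Ogg1-/- and DKO, in either direction. In Mutyh-/- Lhx6, a transcription factor of parvalbumin and somatostatin interneurons, passed the adjusted limit (-0.49, adjusted p = 0.0162). The summed CPM of the 10 markers was 247 to 253 in WT NeuN+, while Mutyh-/- had 184 to 227, Ogg1-/- had 218 to 242 and DKO had 214 to 221, and none was at 0. Slc6a11 is a gene of astrocytes, and the 6 astrocyte markers were each below WT in value in Mutyh-/- NeuN+, 1 at an unadjusted p under 0.05, with a median of -0.22 and a sum of 287 to 301 CPM against 294 to 358 in WT. The part of both marker lists in the values of the GABA synthesis and uptake genes was not tested.

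Among 12 scaffold and trafficking genes none passed an adjusted p under 0.05 in any knockout. Gabarap, whose product binds gamma subunits, was at -0.53 in Ogg1-/- NeuN+ (adjusted p = 0.0877) and -0.47 in DKO NeuN+ (adjusted p = 0.154), the lowest of its list. Shisa7, an auxiliary subunit of GABA-A receptors, was at 0.25 in Mutyh-/- NeuN+ (adjusted p = 0.127), and Plcl1, which binds beta subunits, at 0.26 (adjusted p = 0.148). Of 5 genes of GABA-B receptors, the slower receptors coupled to G proteins, none passed an adjusted limit, and Gabbr2 ranged from 0.13 to 0.15 over the knockouts in NeuN+. Kctd12, an auxiliary subunit of GABA-B receptors, was at -0.33 in Ogg1-/- NeuN+ (adjusted p = 0.171) and -0.27 in DKO NeuN+ (adjusted p = 0.279), both at an unadjusted p under 0.05. Of 5 chloride transport genes in NeuN+, none reached an unadjusted p under 0.05, while in NeuN- 3 of the 5 were lower at that limit in Ogg1-/-, 3 in DKO and 0 in Mutyh-/-. The 3 were the same genes in both, Wnk1, Slc12a5 and Slc12a2. Of all genes 18.7%, 12.3% and 13.5% reached that limit in NeuN+ of Mutyh-/-, Ogg1-/- and DKO, in either direction. In NeuN- these shares were 13.7%, 11.8% and 12.4%. Beside its fall in Ogg1-/-, Wnk1 was at -0.38 in DKO NeuN- (adjusted p = 0.0504). The neuronal exporter gene Slc12a5 was at -0.20 in Ogg1-/- and -0.31 in DKO (adjusted p = 0.195), and Slc12a2 at -0.15 in both, with adjusted p = 0.386 for Ogg1-/- and 0.389 for DKO.

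The genes whose log2 CPM followed each subunit gene most closely over the 12 NeuN+ libraries were taken from all tested genes as a description. Gabra5 had Atp2c1 (Pearson r = 0.978), a calcium pump of the Golgi, Kcnj3 (0.947), a G protein-gated potassium channel, and Scai (0.929). Gabra4 had Gm8170 (0.974), Atp2c1 (0.929) and Gabra5 itself (0.925). Gabra2 had 6030442K20Rik (0.939), Stam (0.925) and Ppp1r12a (0.912), and Gabra3 had 1700012D14Rik (0.938), Gm39027 (0.933) and Rspo2 (0.923). For Gabrb1 the nearest was Stac (0.902), for Gabrb2 Magohb (0.914) and for Gabrd Zfp574 (0.893). These points share libraries, depth and genotype, and the genes were picked as the highest of 30132.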

How the data were processed

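The values deposited by the authors are raw counts per gene in 1 table per fraction, 55254 genes by symbol. Per the labels and the study's methods, read pairs were aligned to GRCm38 with Hisat2 2.1.0 and counted with featureCounts on Ensembl genes, with SAMtools 1.10 and FastQC 0.11.9 also named, and no normalization was applied. How the counting treated strand, overlaps and multiple alignments is not given in the sources used here. Samples were grouped by the labels for genotype and NeuN fraction.

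Counts were tested with edgeR 4.0.16 (R 4.3.3, limma 3.58.1) by the quasi-likelihood test, with filterByExpr, TMM factors and Benjamini-Hochberg adjustment over all genes tested. The 12 libraries of a fraction were fitted together for genotypes (30132 genes in NeuN+, 31863 in NeuN-), and all 24 for fractions and for differences of effects (33523 genes). All 7 genes passed the filter in each fit. Variation between replicate libraries beyond counting noise came to a coefficient of 0.0823 for NeuN+, 0.124 for NeuN- and 0.105 over all libraries. Depth per library was as given above. FPKM used merged exons of GENCODE vM21 on GRCm38. The subunit genes were always named. Of each other list, genes past an adjusted p of 0.05 in a knockout, and those with the largest and smallest fold changes, were to be named. Not all of the latter were. Others named here were picked with their values in view. The members and lists were chosen with earlier results of these data known. The 3 genes most alike to a member were those with the highest Pearson r of log2 CPM (prior count 2) over the NeuN+ libraries. The scripts were tested on simulated data. Alternatives were DESeq2 1.42.0 with the Wald test, RLE size factors, other filters, other fits, a replicate block and fits without each library. Exon usage, methylation and chromatin were not analysed here.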

Additional observations from a re-analysis of the deposited data

How the results depend on the processing

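Of 1645 values of the subunit genes in genotype comparisons under alternatives, 12 had an adjusted p under 0.05, and 9 were called where the main test called 0. All 9 were Gabra5, with the direction of the main test. In Mutyh-/- against WT in NeuN-, 1 gene was called with no low-count filter, with the replicate block, with DESeq2 and with the fit of all 24 libraries, and 0 to 1 on leaving out 1 library. In DKO against WT in NeuN-, 1 was called with the replicate block, with DESeq2 and with the fit of all 24 libraries. For the difference between fractions in the effect of DKO, DESeq2 called 1. The cause was not tested. The calls between fractions did not change in number. Of 1953 values under alternatives, fraction contrasts included, 89 changed sign. None of these was called or had an unadjusted p under 0.05 in the main test. Replicate numbers were not taken as pairs, since not every pair correlated above 0.1, a rule that does not test for pairing. Between fractions of 1 genotype, 6 of 12 same-number pairs did (mean r = 0.111, lowest r = 0.0107) against 1 of 24 others (mean r = -0.06). The paper states that both fractions were collected in sorting, so same-number fractions may share a pool. Whether they do is not given in the sources used here, and the main fits left this pairing out. With fractions blocked this way, the adjusted p for Gabra5 differences of effects (quasi-likelihood test) was 0.237 in Mutyh-/-, 0.286 in Ogg1-/- and 0.122 in DKO. The block of the NeuN- fit was the replicate number across genotypes, which is a different pairing. For it, 5 of 18 same-number pairs correlated above 0.1 (mean r = 0.0463) against 6 of 36 others (mean r = -0.0227). With this block, the Gabra5 values in NeuN- were -0.59 (adjusted p = 0.0291) in Mutyh-/-, -0.49 (0.0678) in Ogg1-/- and -0.56 (0.0444) in DKO. Over all genes, leaving out Mutyh-/- NeuN+ replicate 3 raised the DEGs of Mutyh-/- from 129 to 837, and leaving out Mutyh-/- NeuN- replicate 3 raised them from 87 to 435. Depth limits Gabrd in NeuN- most, where its 95% interval in DKO ran from -1.22 to -0.09.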
